A study of Mus musculus with 48 samples.

Results

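The enzymes that make, attach and remove sialic acid were followed in airspace macrophages, as 32 genes chosen by name from the 24411 genes of the count table: 6 for synthesis and transport of the activated sugar, 20 sialyltransferases, 3 sialidases and a lyase, and 2 enzymes of sialic acid O-acetylation. Of these, 23 passed the filter on low counts that left 12634 genes for testing. RNA came from macrophages that were washed out of the airspaces of 24 male mice (bronchoalveolar lavage), 12 wild type (WT) and 12 lacking Siglec-F (KO), the product of Siglecf. Naive mice received saline and are marked day 0. The others received bleomycin, an antibiotic used to model lung injury and fibrosis, at 2.5 units/kg into the trachea and were sampled on day 7, 14 or 21, with 3 mice in each of the 8 groups. The sources used here give neither the strain and age of the mice, nor the design of the Siglecf allele, nor the way macrophages were separated from other lavage cells. The study asked what Siglec-F signalling in airspace macrophages contributes to fibrosis.

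Sialic acids are sugars that cap the glycans of cell surface proteins and lipids, and Siglecs are receptors that bind them. The sugar is made in the cytosol, activated to CMP-sialic acid in the nucleus, carried into the Golgi and attached to an underlying sugar by sialyltransferases, each of which makes its own linkage. Sialidases remove it in lysosomes and at the plasma membrane. Mouse Siglec-F, a receptor of resident alveolar macrophages and eosinophils, prefers α2,3-linked sialic acid on sulfated glycans, so these enzymes shape both its ligands and those of its relatives.

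Siglecf itself was measured at 403 to 481 CPM (counts per 1000000 counts of the TMM-scaled library) in WT naive mice and at 66.3 to 155 CPM in WT mice after bleomycin, while KO libraries held 0 to 25 counts of it. Library totals ran from 24877049 to 47457085 counts. Summed over 18 markers of resident alveolar macrophages, levels were 34400 to 40200 CPM in the 6 naive mice and 12400 to 33300 CPM in the 18 bleomycin mice. Summed over 15 markers of recruited, monocyte-derived macrophages, they were 793 to 958 CPM in naive and 5340 to 24600 CPM in bleomycin mice. Abundant genes weigh most in these sums, such as Chil3, up to 20100 CPM in naive mice, and Spp1, up to 17900 CPM after bleomycin. Resident markers did not all fall: Fabp4 and Car4 reached 155 and 1230 CPM in bleomycin mice, against at most 85.4 and 629 CPM in naive mice. In these bulk libraries, fewer cells of a type and less RNA per cell cannot be told apart. On the first principal component, which held 51.5% of the variance, 3 KO bleomycin libraries lay closer to naive mice than the others did: mice 2 and 3 of day 14 and mouse 1 of day 21, at 3.5, -19 and -23.8, against 24.2 to 58.9 in the other 15 bleomycin mice and -98 to -89 in naive mice. Their recruited marker sums were 15200, 7470 and 5340 CPM. KO mouse 2 of day 21 had the highest sums for T and NK cell markers, 55.6 CPM, and for dendritic cell markers, 49.4 CPM.

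After bleomycin most of the members that changed rose, in both genotypes. By mean log2 change over the 3 days in WT mice, the GD3 and GM3 ganglioside synthases St8sia1 and St3gal5, the hydroxylase Cmah and St8sia6, called at day 14 alone, ranked highest. All 4 were at or near 0 in naive mice and were tested because of their counts in bleomycin mice. Among members well measured in naive mice the polysialyltransferase St8sia4 ranked highest, and St6galnac4, St6gal1, St3gal1 and St3gal3 rose as well. The falls were in Gne, which starts the pathway, and in the α2,3-sialyltransferase St3gal4. None of the 23 tested members differed between KO and WT mice past the threshold at any time.

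In WT mice, 9 members were higher and 1 lower at day 7 than in naive mice, 12 and 1 at day 14, and 10 and 1 at day 21 (edgeR quasi-likelihood test, Benjamini-Hochberg adjusted p under 0.05 over all tested genes). Of all tested genes, 20.2%, 18.7% and 18.8% were higher and 15.3%, 13.4% and 13.7% lower on these days. In either direction, 43.5%, 56.5% and 47.8% of the tested members stand beside 35.5%, 32.1% and 32.5% of all genes. Median log2 fold changes of the members were 0.39, 0.48 and 0.57, against 0.02, -0.00285 and 0.00211 over all genes. In KO mice, 7 members were higher and 2 lower at day 7, 7 and 0 at day 14, and 8 and 0 at day 21, where 19.7%, 12% and 15% of all genes were higher and 14.4%, 4.84% and 6.89% lower. In either direction this is 39.1%, 30.4% and 34.8% of the members beside 34.1%, 16.9% and 21.9% of all genes. The medians in KO mice were 0.39, 0.17 and 0.32. The 3 days share the same naive mice within a genotype. Cmah, St3gal5, St3gal6, St8sia1 and St8sia6 reached the count filter through bleomycin mice alone and so entered the test because they were higher there. The shares and medians above include these genes. Over the other 18 members the counts were 6 higher and 1 lower, 8 and 1, and 7 and 1 in WT mice, and 4 and 2, 5 and 0, and 5 and 0 in KO mice. Median log2 fold changes of these 18 were smaller, at 0.264, 0.27 and 0.384 in WT mice and 0.196, 0.122 and 0.207 in KO mice.

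The count at KO day 14 was carried by few libraries: it fell from 7 to 3, 4 or 4 without KO naive mouse 1, 2 or 3, and to 4 without KO day 14 mouse 1. At KO day 21 it fell from 8 to 5 without mouse 2. Leaving out the 3 KO mice that stood nearer the naive mice, a choice made after seeing the data, gave 8 members called at day 14 and 10 at day 21, beside 18% and 28.4% of 13429 genes tested in that fit. It leaves 1 KO mouse at day 14, which is assumed to vary like the other groups, and 2 at day 21.

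**Figure D1:**
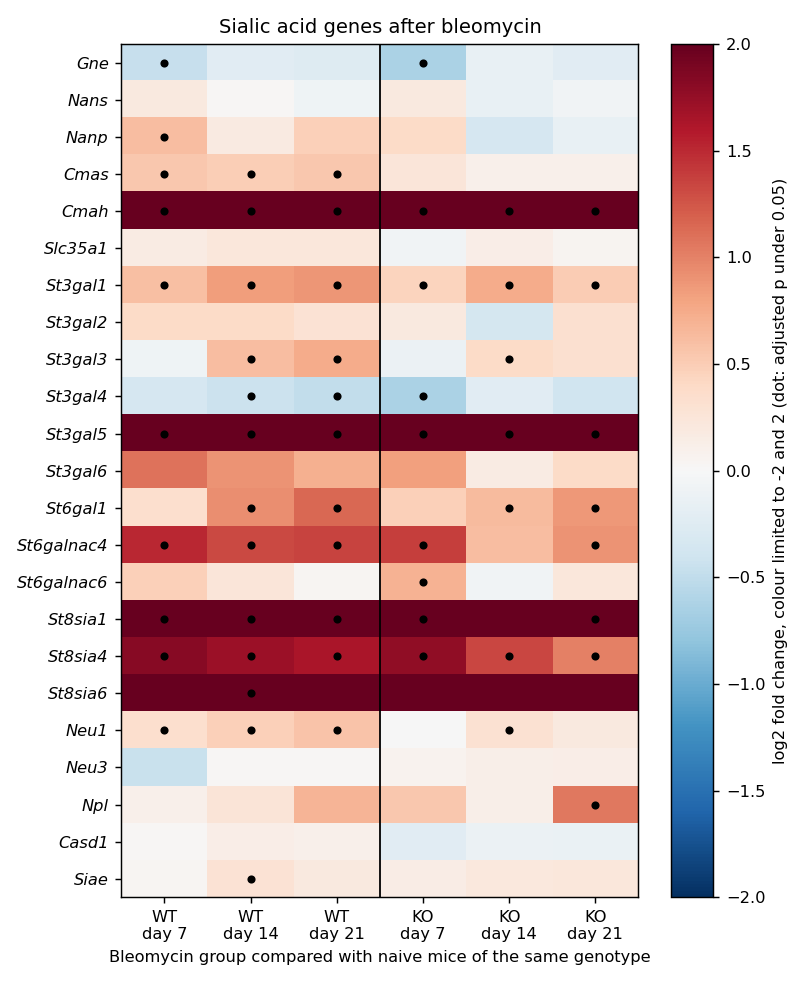
Log2 fold change of the 23 tested members (rows, ordered by role) in bleomycin against naive mice of the same genotype (columns, 3 mice per group), with colour limited to the range from -2 to 2 and a dot where edgeR's adjusted p was under 0.05. The darkest rows are Cmah, St3gal5, St8sia1 and St8sia6, which were at or near 0 in naive mice, and the blue dotted cells are Gne and St3gal4.

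Upstream promoter sequence is shown for 3 members, the transferases St8sia4 and St6galnac4 with the largest rises among members well measured in naive mice, and the sialidase Neu1, the member with the highest level per length. Each run is the 250 bases before the start site from RefSeq on GRCm38.p6, 5′ to 3′ on the strand of the gene, and overlaps no exon of GENCODE M21. Capitals mark matches on either strand to 6 searched motifs: AP-1 (TGANTCA), E-box (CACGTG), PU.1 (GAGGAA), GC box (GGGCGG), the interferon response element (a pair of GAAA blocks with any 2 bases between them) and CRE (TGACGTCA). The St8sia4 window is chr1:95667595-95667844 on the minus strand, that of St6galnac4 chr2:32586828-32587077 on the plus strand, and that of Neu1 chr17:34931003-34931252 on the plus strand.
St8sia4: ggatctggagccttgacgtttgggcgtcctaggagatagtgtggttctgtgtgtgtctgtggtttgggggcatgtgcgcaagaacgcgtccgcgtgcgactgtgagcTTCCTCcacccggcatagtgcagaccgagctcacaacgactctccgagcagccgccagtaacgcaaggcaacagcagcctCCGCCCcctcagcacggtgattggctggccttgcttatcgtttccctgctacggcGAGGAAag
St6galnac4: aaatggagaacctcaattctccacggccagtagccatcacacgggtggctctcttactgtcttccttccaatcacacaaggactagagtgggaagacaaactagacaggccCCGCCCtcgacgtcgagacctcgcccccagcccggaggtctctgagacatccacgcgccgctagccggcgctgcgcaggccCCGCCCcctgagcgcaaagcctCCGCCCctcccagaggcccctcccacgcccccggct
Neu1: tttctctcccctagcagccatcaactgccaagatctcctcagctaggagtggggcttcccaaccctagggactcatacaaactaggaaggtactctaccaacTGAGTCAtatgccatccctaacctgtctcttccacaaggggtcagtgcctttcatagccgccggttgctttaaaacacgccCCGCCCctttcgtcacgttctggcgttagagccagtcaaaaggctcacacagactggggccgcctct
The St8sia4 window held PU.1 and GC box matches, the St6galnac4 window GC box matches alone, and the Neu1 window AP-1 and GC box matches, and no marked matches overlap each other. Among 32851 promoters, 6.75% held the AP-1 letters, 23.3% the PU.1 letters and 32.7% the GC box letters in windows of the same length. The matches are letters in a window, not measured binding sites. RefSeq entries were matched for 22 of the 32 members.

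Among the genes of synthesis and activation, Gne fell early and Cmas rose. Gne, on chromosome 4 (44034075 to 44084177, mm10), encodes the 2-function epimerase and kinase that commits UDP-GlcNAc to sialic acid. WT naive mice had 25.9, 28.6 and 29.3 CPM, and WT mice had 18.6, 20.2 and 21.9 CPM at day 7, 22.1, 26.2 and 23.4 CPM at day 14 and 22.6, 25.8 and 21.4 CPM at day 21. KO naive mice had 28.2, 29.5 and 32.2 CPM, and KO mice had 16.5, 18.2 and 23.0 CPM at day 7, 24.1, 28.0 and 29.1 CPM at day 14 and 28.9, 25.3 and 22.5 CPM at day 21. In both genotypes the day 7 mice lay below their naive mice without overlap, while at day 14 in both genotypes and at day 21 in KO mice the values reached into the naive range. The fall at day 7 was -0.46 ± 0.13 on the log2 scale (SE) in WT mice and -0.64 ± 0.13 in KO mice (edgeR adjusted p = 0.0070 and 0.00056), and at day 14 and day 21 it did not pass in either genotype. Within KO mice, Gne was higher at day 21 than at day 7 by 0.41 ± 0.13 (edgeR adjusted p = 0.034), a call lost without KO day 7 mouse 1 or 2 or KO day 21 mouse 1 or 2.

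Cmas, on chromosome 6 (142756686 to 142775714), makes CMP-sialic acid, the donor used by all sialyltransferases. It stood at 32.2, 30.6 and 34.7 CPM in WT naive mice, 48.4, 44.1 and 49.8 CPM at day 7, 42.2, 46.7 and 48.6 CPM at day 14 and 44.7, 45.4 and 51.4 CPM at day 21. Values in KO naive mice were 40.0, 39.9 and 37.2 CPM, followed by 48.9, 44.3 and 44.9 CPM at day 7, 46.0, 40.9 and 38.9 CPM at day 14 and 36.1, 50.2 and 39.7 CPM at day 21. The 9 WT bleomycin mice all lay above the 3 WT naive mice, while KO naive mice already lay above WT naive mice and overlapped KO mice of day 14 and day 21. In WT mice the rise was 0.55 ± 0.11, 0.50 ± 0.11 and 0.54 ± 0.11 at day 7, 14 and 21 (edgeR adjusted p = 0.00056, 0.0015 and 0.00076). In KO mice it was 0.24 ± 0.11, 0.10 ± 0.11 and 0.11 ± 0.11 and was called on no day. The difference between these responses was -0.40 ± 0.15 at day 14 and -0.43 ± 0.15 at day 21 and did not pass either (edgeR adjusted p = 0.34 and 0.26).

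Nanp, which removes the phosphate from newly made sialic acid, lies on chromosome 2 and shares exon sequence on its own strand with Ninl, so its counts are uncertain. Values in WT naive mice were 2.56, 2.94 and 2.42 CPM, and WT mice had 4.68, 3.88 and 3.54 CPM at day 7, 2.46, 3.34 and 3.15 CPM at day 14 and 3.41, 3.95 and 3.63 CPM at day 21. In the KO genotype, naive mice had 2.85, 3.67 and 3.39 CPM, and KO mice had 3.72, 3.67 and 5.57 CPM at day 7, 2.59, 3.27 and 1.97 CPM at day 14 and 3.65, 2.47 and 2.85 CPM at day 21. The rise in WT mice at day 7, 0.61 ± 0.23, passed narrowly (edgeR adjusted p = 0.043) and was lost in 7 of 10 alternatives, among them the omission of WT naive mouse 1, 2 or 3 and of WT day 7 mouse 1 or 2. Nans, the synthase, and Slc35a1, the Golgi transporter of CMP-sialic acid, were called in no bleomycin response: the 24 mice ran from 68.6 to 102 CPM and from 13.3 to 19.5 CPM.

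Cmah, which turns CMP-Neu5Ac into the hydroxylated form CMP-Neu5Gc, was at 0 counts in all 6 naive libraries. WT mice had 0.355, 0.399 and 0.553 CPM at day 7, 0.273, 0.0964 and 0.889 CPM at day 14 and 0.364, 0.139 and 0.242 CPM at day 21. KO mice had 0.234, 0.369 and 0.386 CPM at day 7, 0.0823, 0.171 and 0.209 CPM at day 14 and 0.135, 2.08 and 0.569 CPM at day 21. Each of the 18 bleomycin libraries held Cmah counts, and KO day 21 mouse 2 was the highest. Against a floor of 3 counts over the 3 naive libraries, Cmah was at least 16.1-fold, 16.5-fold and 9.19-fold higher at day 7, 14 and 21 in WT mice and at least 14.0-fold, 6.87-fold and 37.5-fold higher in KO mice (edgeR adjusted p = 0.0018, 0.0022, 0.0060, 0.0023, 0.019 and 0.00070). The KO day 14 call was lost without KO naive mouse 1, 2 or 3. The bound at KO day 21 was 15.3-fold without KO day 21 mouse 2, and that at WT day 14 was 7.06-fold without WT day 14 mouse 3. Such floors cover counting error only. KO day 21 mouse 2 is the library with the highest T and NK, B and dendritic cell marker sums, and the part of these cells in the Cmah level was not tested.

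The α2,3-sialyltransferases moved in opposite directions. St3gal1, on chromosome 15 (67102875 to 67176830), caps core 1 O-glycans. It stood at 52.5, 68.5 and 67.6 CPM in WT naive mice, 76.0, 111 and 98.0 CPM at day 7, 113, 107 and 115 CPM at day 14 and 113, 125 and 109 CPM at day 21. Among KO mice, the naive group had 89.4, 69.3 and 67.6 CPM, and KO mice had 94.5, 111 and 104 CPM at day 7, 119, 138 and 120 CPM at day 14 and 84.9, 113 and 123 CPM at day 21. Every WT bleomycin mouse lay above the WT naive mice, and in KO mice only day 21 mouse 1 fell among the naive values. St3gal1 rose in WT mice by 0.60 ± 0.15, 0.83 ± 0.15 and 0.88 ± 0.15 (edgeR adjusted p = 0.0036, 0.00026 and 0.00015) and in KO mice by 0.45 ± 0.15, 0.74 ± 0.15 and 0.50 ± 0.15 (edgeR adjusted p = 0.023, 0.0015 and 0.019). The KO calls at day 7 and day 21 were lost without KO naive mouse 2 or 3, at day 7 without KO day 7 mouse 2, and at day 21 without KO day 21 mouse 2 or 3.

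St3gal4, on chromosome 9 (35046576 to 35119268), acts on N-acetyllactosamine ends and is known for making sialyl Lewis x precursors. It went the other way: WT naive mice had 48.5, 44.4 and 42.7 CPM, and WT mice had 29.1, 39.2 and 39.0 CPM at day 7, 38.2, 28.2 and 34.1 CPM at day 14 and 33.8, 34.2 and 28.6 CPM at day 21. KO naive mice had 49.7, 52.5 and 51.3 CPM, and KO mice had 33.6, 33.7 and 31.5 CPM at day 7, 32.5, 45.2 and 52.9 CPM at day 14 and 48.3, 34.6 and 33.7 CPM at day 21. All 9 WT bleomycin mice lay below the WT naive mice. In KO mice the 3 highest bleomycin values, 52.9, 48.3 and 45.2 CPM, belong to the 3 mice that stood nearer the naive mice. The fall passed in WT mice at day 14 and day 21, by -0.43 ± 0.16 and -0.49 ± 0.16, and in KO mice at day 7, by -0.63 ± 0.16 (edgeR adjusted p = 0.049, 0.026 and 0.0047). The WT day 14 call was lost in 8 of 10 alternatives, among them another scaling, no filter and the omission of any WT naive mouse or of WT day 14 mouse 2 or 3, and the WT day 21 call without WT naive mouse 1 or 2 or WT day 21 mouse 3. A gene model on the opposite strand, 4930581F22Rik, overlaps St3gal4, and no source used here says whether reads were counted by strand.

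St3gal3, on chromosome 4 (117932154 to 118134914), which sialylates type 1 and type 2 lactosamine ends, rose late. In the WT genotype, naive mice had 12.3, 16.2 and 14.2 CPM, and WT mice had 13.6, 14.2 and 12.3 CPM at day 7, 22.4, 19.7 and 23.4 CPM at day 14 and 21.4, 23.5 and 26.2 CPM at day 21. Values in KO naive mice were 16.3, 15.9 and 18.6 CPM, and KO mice had 16.2, 16.8 and 13.9 CPM at day 7, 21.5, 23.8 and 20.6 CPM at day 14 and 18.9, 19.8 and 24.6 CPM at day 21. Day 7 mice overlapped the naive mice in both genotypes, and the day 14 and day 21 mice lay above them. The rise in WT mice was 0.62 ± 0.13 at day 14 and 0.73 ± 0.13 at day 21 over naive mice, and 0.83 ± 0.13 from day 7 to day 21 (edgeR adjusted p = 0.00098, 0.00019 and 0.00031). In KO mice it was 0.38 ± 0.13 at day 14 (edgeR adjusted p = 0.046), 0.32 ± 0.13 at day 21, not called (edgeR adjusted p = 0.077), and 0.43 ± 0.13 from day 7 to day 21 (edgeR adjusted p = 0.027). The day 14 call was lost without KO naive mouse 1 or 2 or KO day 14 mouse 1 or 2, and the call between day 7 and day 21 without KO day 7 mouse 1 or 3 or KO day 21 mouse 3. Between day 7 and day 21, 2 members were higher in WT mice (St3gal3 and St6gal1) and 2 higher and 1 lower in KO mice (Gne, St3gal3 and St8sia4), beside 5.49% higher and 6.15% lower of all genes in WT mice (11.6% in all) and 7.16% and 7.73% in KO mice (14.9% in all). The WT count was 1 without WT day 7 mouse 3, and the KO count ran from 0 without KO day 7 mouse 1 to 5 without KO day 21 mouse 2, with 1 without KO day 7 mouse 2 or KO day 21 mouse 3.

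St3gal5, the GM3 synthase that begins the complex gangliosides, lies on chromosome 6 (72097592 to 72154571). It was nearly absent from naive mice, with 0, 0 and 0.0792 CPM in WT and 0.0460, 0.0483 and 0 CPM in KO mice. WT mice had 1.03, 1.13 and 2.65 CPM at day 7, 0.957, 1.35 and 1.17 CPM at day 14 and 1.12, 0.866 and 1.00 CPM at day 21. KO mice had 2.24, 1.27 and 1.24 CPM at day 7, 0.658, 0.102 and 0.0897 CPM at day 14 and 0.514, 0.764 and 1.19 CPM at day 21. Bleomycin mice of both genotypes lay above the naive mice, and the 3 lowest of them were the KO mice that stood nearer the naive mice. St3gal5 rose on the log2 scale by 5.45 ± 0.92, 4.98 ± 0.91 and 4.76 ± 0.92 in WT mice (edgeR adjusted p = 0.00012, 0.00034 and 0.00049) and by 5.51 ± 0.91, 2.99 ± 0.94 and 4.57 ± 0.90 in KO mice (edgeR adjusted p = 9.7e-05, 0.033 and 0.0010). The KO day 14 call was lost without KO day 14 mouse 1 or any KO naive mouse. With naive libraries at 0 to 4 counts these fold changes depend on few reads. St3gal6 stayed low and was called in no comparison, with 0.0396 to 0.266 CPM in the 6 naive mice and 0.0346 to 0.468 CPM in the 18 bleomycin mice. By mouse it was 0.155, 0.206 and 0.0396 CPM in WT naive mice, 0.388, 0.177 and 0.276 CPM at day 7, 0.465, 0.161 and 0.102 CPM at day 14 and 0.463, 0.139 and 0.0346 CPM at day 21. In KO mice it was 0.207, 0.266 and 0.139 CPM when naive, 0.468, 0.343 and 0.276 CPM at day 7, 0.411, 0.136 and 0.150 CPM at day 14 and 0.271, 0.428 and 0.104 CPM at day 21, so that KO day 7 mice lay above KO naive mice without overlap and the other groups overlapped the naive mice of their genotype. St3gal2, which acts on O-glycans and gangliosides, was called in no response, at 7.26 to 16.1 CPM over the 24 mice.

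**Figure D2:**
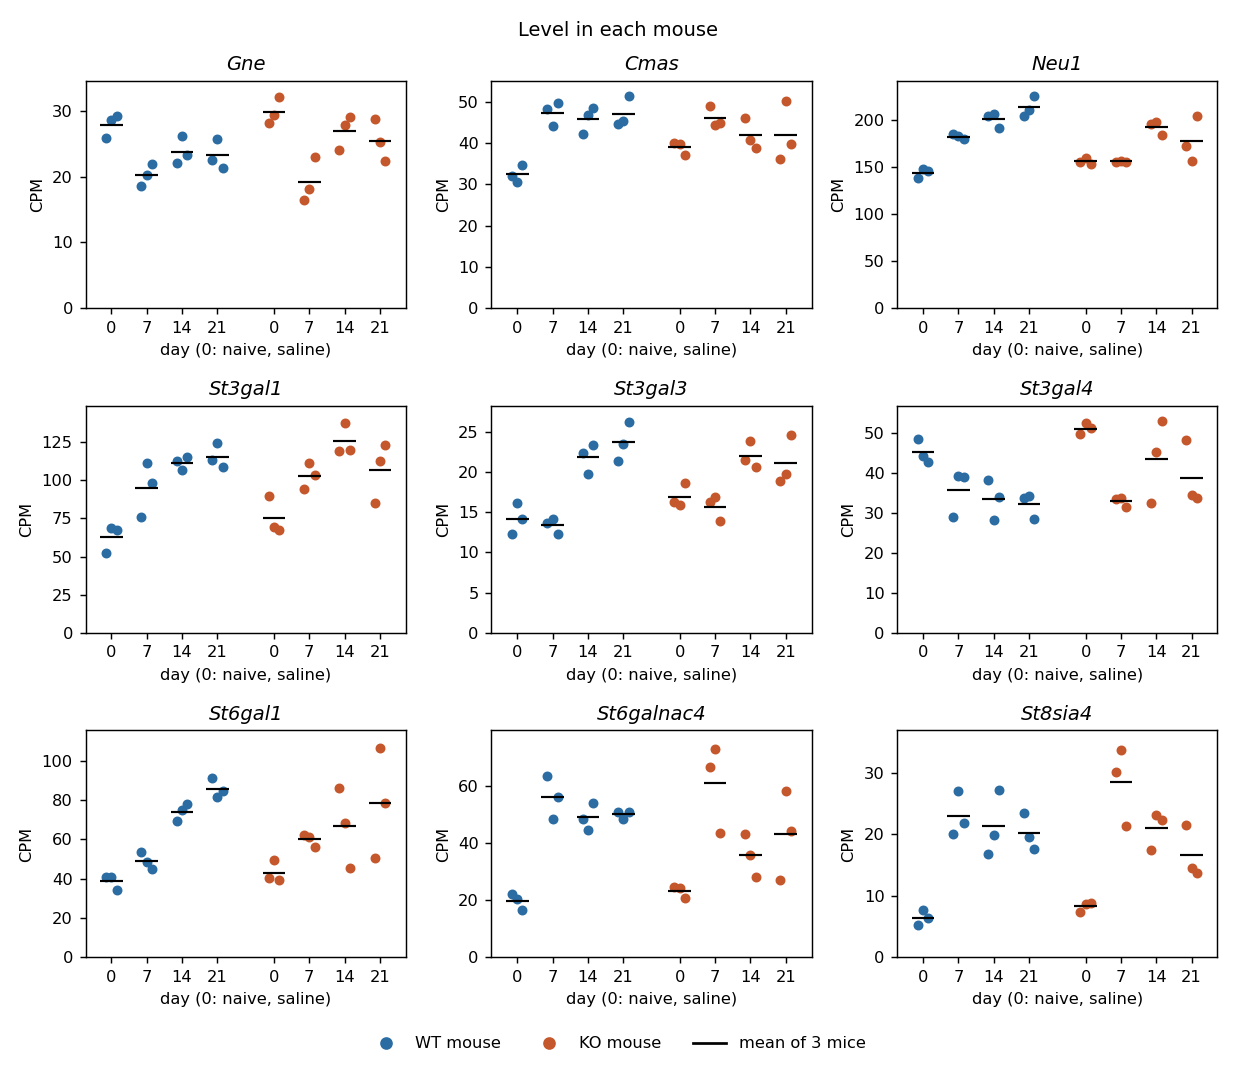
CPM of 9 members in each mouse, with day on the horizontal axis (0 is naive), WT mice in blue, KO mice in orange and a black line at the mean of 3 mice. St8sia4 and St6galnac4 are already high at day 7, St3gal3 is at naive levels at day 7 and higher at day 14 and day 21, and the means of St3gal4 and Gne lie lower after bleomycin in WT mice.

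St6gal1, on chromosome 16 (23224740 to 23360350), makes the α2,6 linkage on N-glycans that CD22 and other Siglecs bind. WT naive mice had 40.8, 41.1 and 34.3 CPM, and WT mice had 53.6, 48.5 and 44.8 CPM at day 7, 69.1, 74.8 and 77.8 CPM at day 14 and 90.9, 81.3 and 84.8 CPM at day 21. In WT mice each group lay above the one before it, without overlap. In the KO genotype, naive mice had 40.4, 49.4 and 39.3 CPM, and KO mice had 62.3, 61.3 and 56.2 CPM at day 7, 86.1, 68.1 and 45.4 CPM at day 14 and 50.7, 106 and 78.7 CPM at day 21. In KO mice the values spread widely at day 14 and day 21, and the lowest were again mouse 3 of day 14 and mouse 1 of day 21. The rise in WT mice was 0.34 ± 0.20 at day 7, not called, then 0.93 ± 0.20 at day 14 and 1.15 ± 0.21 at day 21 (edgeR adjusted p = 0.21, 0.0016 and 0.00026). In KO mice it was 0.48 ± 0.20, not called, then 0.63 ± 0.20 and 0.87 ± 0.20 (edgeR adjusted p = 0.076, 0.039 and 0.0042). The KO day 14 call was lost without KO naive mouse 1 or 3 or KO day 14 mouse 1 or 2. From day 7 to day 21 St6gal1 rose in WT mice by 0.81 ± 0.20 (edgeR adjusted p = 0.012), a call lost without WT day 7 mouse 3. An opposite-strand gene model, BC106179, overlaps St6gal1.

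Among the enzymes that sialylate N-acetylgalactosamine, St6galnac4, which adds a second sialic acid to sialylated core 1, stood at 16.8 to 22.3 CPM in WT naive mice and at 44.7 to 63.7 CPM in the 9 WT bleomycin mice. Its rise was 1.51 ± 0.22, 1.31 ± 0.22 and 1.35 ± 0.22 in WT mice (edgeR adjusted p = 2.8e-05, 0.00014 and 0.00011). In KO mice it went from 20.7 to 24.8 CPM to between 27.2 and 73.1 CPM, a rise of 1.39 ± 0.22 at day 7 and 0.89 ± 0.22 at day 21 (edgeR adjusted p = 6.3e-05 and 0.0057), with 0.62 ± 0.22 at day 14 not called (edgeR adjusted p = 0.056). The KO day 21 call was lost without KO day 21 mouse 2. St6galnac6, a ganglioside sialyltransferase whose gene begins just downstream of St6galnac4 on the same strand, was called in KO mice at day 7 alone (0.69 ± 0.22, edgeR adjusted p = 0.018), and not without KO naive mouse 1 or 3 or KO day 7 mouse 1 or 2. It ran from 11.6 to 29.9 CPM over the 24 mice.

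The α2,8-sialyltransferases build sialic acid onto sialic acid. St8sia4, on chromosome 1 (95587682 to 95667571), makes polysialic acid, a chain known on a few carrier proteins of immune and nerve cells. It stood at 5.28, 7.64 and 6.47 CPM in WT naive mice, 20.0, 27.0 and 21.8 CPM at day 7, 16.9, 19.9 and 27.2 CPM at day 14 and 23.4, 19.6 and 17.5 CPM at day 21. Among KO mice, the naive group had 7.38, 8.65 and 8.86 CPM, and KO mice had 30.2, 33.7 and 21.4 CPM at day 7, 17.5, 23.1 and 22.4 CPM at day 14 and 21.6, 14.5 and 13.8 CPM at day 21. All 18 bleomycin mice lay above all 6 naive mice, those near the naive mice on the first component included. St8sia4 rose by 1.82 ± 0.22, 1.72 ± 0.22 and 1.64 ± 0.22 in WT mice (edgeR adjusted p = 2.4e-06, 5.4e-06 and 9.4e-06) and by 1.77 ± 0.21, 1.34 ± 0.21 and 1.00 ± 0.21 in KO mice (edgeR adjusted p = 2.8e-06, 0.00013 and 0.0018). These 6 calls held in every alternative run on them. Within KO mice it fell by 0.77 ± 0.21 from day 7 to day 21 (edgeR adjusted p = 0.015), a call lost without KO day 7 mouse 1 or 2 or KO day 21 mouse 2 or 3.

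St8sia1, the GD3 synthase, takes the GM3 made by St3gal5 as its substrate. It lies on chromosome 6 (142821545 to 142964452), overlaps the opposite-strand model Gm7457, and was at 0 counts in all 6 naive libraries. WT mice had 0.420, 1.13 and 0.940 CPM at day 7, 0.683, 0.289 and 1.07 CPM at day 14 and 1.03, 0.658 and 0.138 CPM at day 21. KO mice had 0.677, 0.765 and 0.911 CPM at day 7, 0.617, 0 and 0.180 CPM at day 14 and 0, 2.11 and 0.285 CPM at day 21. It was seen in all 9 WT bleomycin mice and in 7 of 9 KO mice, the exceptions being KO day 14 mouse 2 and KO day 21 mouse 1. Against the floor of 3 counts it was at least 32.1-fold, 26.1-fold and 22.5-fold higher in WT mice (edgeR adjusted p = 0.0075, 0.011 and 0.013) and at least 33.4-fold, 10.3-fold and 31.6-fold higher in KO mice, where day 14 was not called (edgeR adjusted p = 0.0066, 0.052 and 0.011). The KO day 21 call was lost without mouse 2 of that group, where the bound was 6.22-fold. The bound at KO day 14 was 4.09-fold without mouse 1 of that group, and at WT day 21 it was 14.6-fold without mouse 1.

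St8sia6, which adds a second sialic acid on O-glycans and makes ligands of Siglec-E, was lower still. WT mice had 0, 0 and 0 CPM when naive, 0, 0.0887 and 0 CPM at day 7, 0.164, 0.675 and 0.280 CPM at day 14 and 0.198, 0.277 and 0 CPM at day 21. KO mice had 0.0230, 0 and 0 CPM when naive, 0.182, 0.158 and 0 CPM at day 7, 0.0411, 0 and 0.359 CPM at day 14 and 0, 0.305 and 0.181 CPM at day 21. It was called in WT mice at day 14 alone, at least 13.1-fold higher (edgeR adjusted p = 0.025), and not without any 1 WT naive mouse or WT day 14 mouse 2, without which the bound was 8.23-fold. An opposite-strand model, Gm37126, overlaps it.

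**Figure D3:**
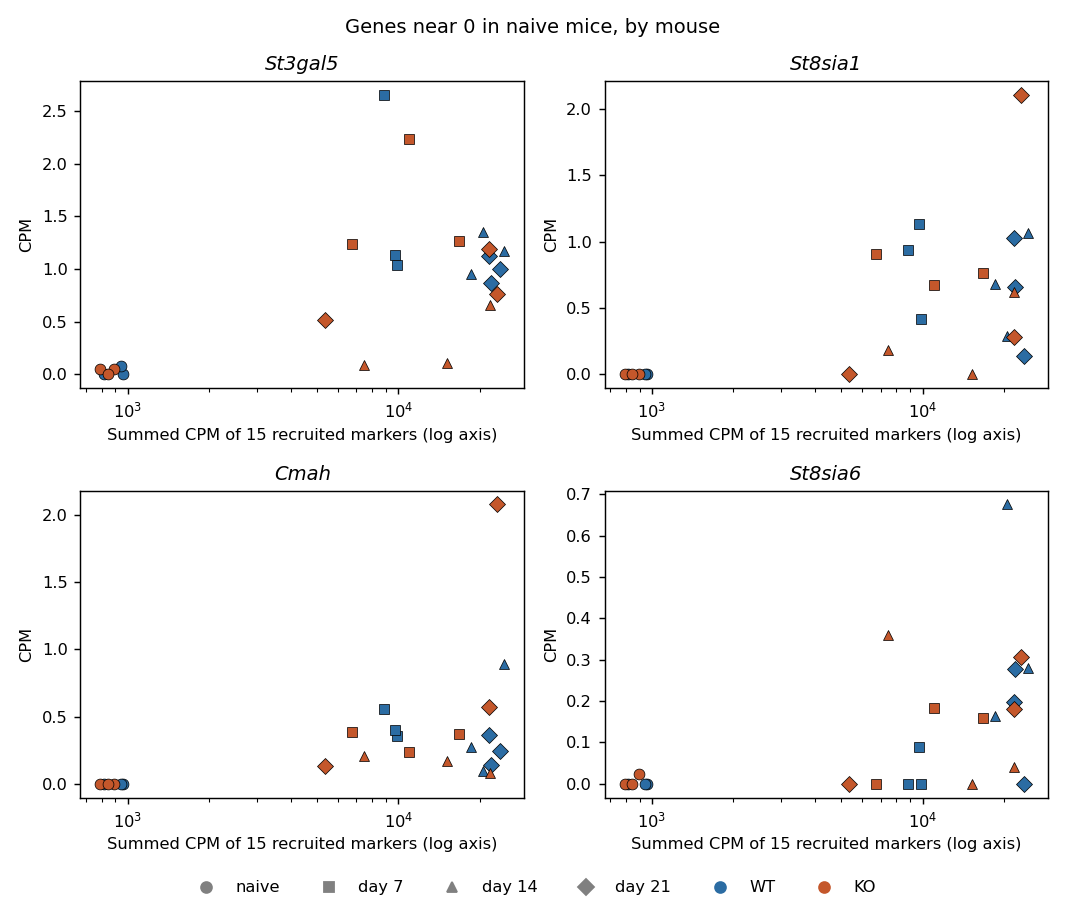
CPM of St3gal5, St8sia1, Cmah and St8sia6 (vertical axes, linear) against the summed CPM of 15 recruited macrophage markers in the same mouse (log axis), with shapes for day and colours for genotype. The 6 naive mice sit at 793 to 958 CPM of markers and at or near 0 of each gene, and the KO mice of day 14 and day 21 with marker sums of 7470, 15200 and 5340 CPM sit low for St3gal5 and St8sia1. Other mice do not follow the marker sum: KO day 7 mouse 3, at 6720 CPM, has 1.24 CPM of St3gal5 and 0.911 CPM of St8sia1. WT day 21 mouse 3, at 23700 CPM, has 0.138 CPM of St8sia1.

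Beside these 4 genes, marker sums of other cells also reached higher values after bleomycin than in naive mice. T and NK cell markers summed to 0.646 to 1.71 CPM in naive and 6.74 to 55.6 CPM in bleomycin mice over 11 of 13 markers in the table, and B and plasma cell markers to 0.099 to 0.35 and 0.108 to 5.99 CPM over 8 of 10. Dendritic cell markers went from 2.84 to 6.01 CPM to 4.97 to 49.4 CPM over 9 of 9, and neutrophil markers from 107 to 160 CPM to 134 to 372 CPM over 12 of 12. Among T and NK cell markers Cd8a, Cd8b1, Nkg7 and Ncr1 had 0 counts in the 6 naive mice, as did the B and plasma cell markers Cd79a, Pax5, Ebf1, Jchain and Mzb1, and no dendritic cell or recruited macrophage marker did. After bleomycin each of these named genes had counts in some mice, from 3 of 18 for Ncr1 to 18 of 18 for Cd8a and Cd8b1. The part of recruited macrophages and of these other cells in the rise of the 4 genes was not tested.

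Of the sialidases, Neu1, the lysosomal enzyme, rose in WT mice on every day. It lies on chromosome 17 (34931253 to 34935953). Values in WT naive mice were 138, 147 and 146 CPM, and WT mice had 184, 183 and 179 CPM at day 7, 204, 206 and 191 CPM at day 14 and 204, 211 and 225 CPM at day 21. KO naive mice had 155, 159 and 153 CPM, and KO mice had 155, 156 and 155 CPM at day 7, 195, 198 and 183 CPM at day 14 and 172, 157 and 204 CPM at day 21. WT mice left the naive range at day 7, whereas KO mice of day 7 lay inside their own naive range, and KO mouse 2 of day 21 did too. Neu1 rose by 0.34 ± 0.08, 0.48 ± 0.08 and 0.57 ± 0.08 in WT mice (edgeR adjusted p = 0.0021, 0.00012 and 1.7e-05). In KO mice the changes on the same days were -0.00101 ± 0.0789, 0.30 ± 0.08 and 0.19 ± 0.08 (edgeR adjusted p = 0.99, 0.011 and 0.094), and the day 14 call was lost without KO day 14 mouse 2.

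Neu3, the sialidase of the plasma membrane that acts on gangliosides, was called in no comparison. In the WT genotype, naive mice had 2.45, 1.94 and 1.84 CPM, and WT mice had 1.62, 2.31 and 0.608 CPM at day 7, 2.13, 1.80 and 2.36 CPM at day 14 and 1.98, 2.25 and 2.07 CPM at day 21. Values in KO naive mice were 1.45, 1.91 and 1.75 CPM, and KO mice had 1.69, 1.98 and 1.71 CPM at day 7, 2.18, 2.05 and 1.35 CPM at day 14 and 2.27, 1.34 and 1.97 CPM at day 21. Bleomycin mice of each day overlapped the naive mice of their genotype, and KO overlapped WT mice at each time, with WT day 7 mouse 3 lowest. Npl, the lyase that breaks down free sialic acid, was called in KO mice at day 21 alone (1.06 ± 0.33, edgeR adjusted p = 0.026), and this rested on mouse 2 of that group at 40.2 CPM, since the other 23 mice ran from 8.22 to 19.2 CPM. Without that mouse, or without any 1 KO naive mouse, it was not called.

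Siae, the esterase that removes O-acetyl groups from sialic acid and so uncovers it for Siglec binding, shares exon sequence with Spa17 and Tbrg1 on the opposite strand. WT naive mice had 43.9, 46.2 and 37.8 CPM, and WT mice had 39.2, 46.5 and 45.9 CPM at day 7, 50.7, 49.2 and 55.7 CPM at day 14 and 50.9, 46.8 and 48.7 CPM at day 21. In the KO genotype, naive mice had 43.7, 43.4 and 46.8 CPM, and KO mice had 49.4, 46.7 and 52.2 CPM at day 7, 52.1, 52.2 and 51.0 CPM at day 14 and 52.2, 50.2 and 54.3 CPM at day 21. It was called in WT mice at day 14 (0.29 ± 0.09, edgeR adjusted p = 0.017), not without WT naive mouse 3 or WT day 14 mouse 3. Casd1, the enzyme that adds the O-acetyl group, was called in no comparison, at 20.6 to 35.1 CPM over the 24 mice.

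The other 9 members did not pass the filter. St6gal2, St6galnac5, St8sia2, St8sia3 and Neu2 had 0 counts in all 24 libraries, which allows up to 0.00351 CPM over the libraries together. St8sia5 had 1 count in all, St6galnac1 had 7, St6galnac3 had 25 and St6galnac2 had 56. Neu2 is the cytosolic sialidase, and St8sia2 is the other polysialyltransferase beside St8sia4.

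Scaled by exon length (GENCODE M21, coding transcripts), Neu1 was the highest member in WT naive mice at 58.1 ± 1.88 CPM per kb (SD, n = 3), followed by Nans at 36.5 ± 2.36, Cmas at 18.4 ± 1.19, St3gal4 at 15.5 ± 1.02, St3gal1 at 10.8 ± 1.55 and St6gal1 at 7.88 ± 0.776. No pair of neighbours among these 6 overlapped, though Cmas at 17.4 to 19.7 and St3gal4 at 14.6 to 16.6 CPM per kb lay close, as did St3gal1 at 9.05 to 11.8 and St6gal1 at 6.98 to 8.35. At WT day 21 the order among sialyltransferases was St3gal1 at 19.9 ± 1.44, St6gal1 at 17.4 ± 0.996, St6galnac4 at 13.9 ± 0.393 and St3gal4 at 11.0 ± 1.08 CPM per kb, and again no 2 neighbours overlapped. St8sia4 remained a low transcript per length, at 0.451 ± 0.0821 and 1.41 ± 0.209 CPM per kb.

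The ratio of St6gal1 to St3gal4 per kb turned over. It was 0.478 to 0.55 in WT naive mice, 0.683 to 1.1 at day 7, 1.07 to 1.58 at day 14 and 1.41 to 1.76 at day 21. In KO mice it was 0.456 to 0.56 when naive, 1.06 to 1.1 at day 7, 0.51 to 1.58 at day 14 and 0.624 to 1.83 at day 21. St3gal4 was thus the more abundant of the pair per length in all 6 naive mice and St6gal1 in all 6 WT mice of day 14 and day 21, while KO mice of those days fell on both sides. These ratios are transcript levels and not amounts of either linkage.

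**Figure D4:**
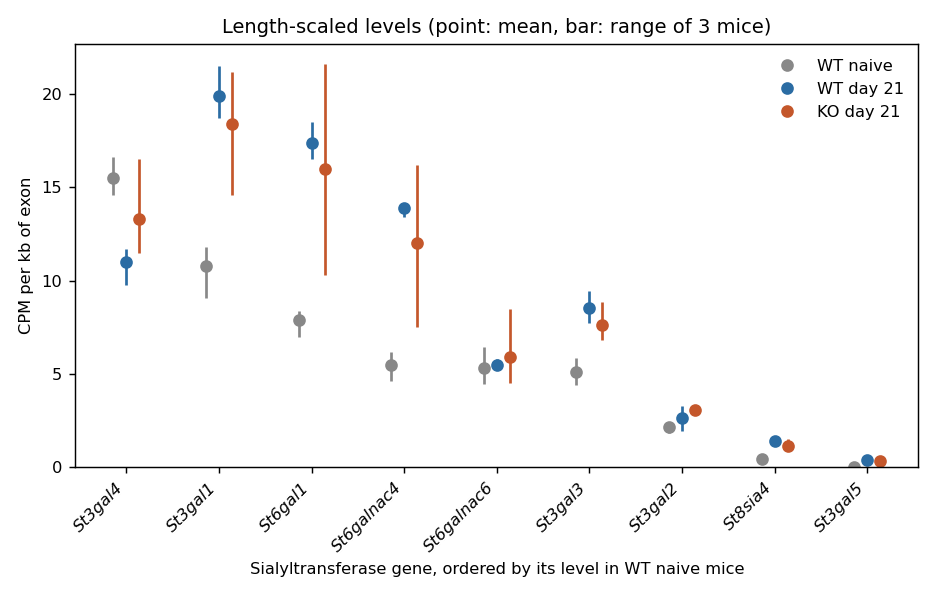
CPM per kb of exon for 9 sialyltransferase genes, ordered by their level in WT naive mice, with points at the mean and bars over the range of 3 mice for WT naive, WT day 21 and KO day 21. St3gal4 is the highest in WT naive mice at 15.5 CPM per kb and the fourth at WT day 21, and bars of KO day 21 are long for St6gal1 and St6galnac4.

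Between the genotypes, 0 of 23 members were called in naive mice by edgeR, beside 0.182% of all genes higher and 0.364% lower in KO mice (0.546% in all). At day 7, 14 and 21 the count was 0 as well, beside 0%, 0.0317% and 0.0396% of all genes higher and 0.00792%, 0.103% and 0.0554% lower (0.00792%, 0.135% and 0.095% in all). At an unadjusted p under 0.05 there were 1, 1, 4 and 1 members (4.35%, 4.35%, 17.4% and 4.35%), beside 8.33%, 4.59%, 10% and 9.78% of all genes, and DESeq2 called 0 at each time. For the mean over the 4 times edgeR and DESeq2 called 0, beside 0.166% of all genes higher and 0.158% lower (0.325% in all) by edgeR. At an unadjusted p under 0.05 there were 2 (8.7%), beside 10.4% of all genes. Among the 18 members with a mean of at least 1 CPM in each group, the 95% interval of the KO to WT ratio lay within 2-fold in either direction for 18 members in naive and in day 21 mice and for 17 in day 7 and in day 14 mice. The exceptions were Npl at day 7 and St3gal2 at day 14. The farthest estimates were 0.36 for St8sia4 in naive mice, 0.37 for Npl at day 7, -0.53 for St3gal2 at day 14 and 0.31 for Npl at day 21, on the log2 scale.

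Neu1 came nearest to a call. It was lower in KO than in WT mice at day 7 by -0.23 ± 0.08 and at day 21 by -0.27 ± 0.08, with no overlap of the mice at either day, though at day 21 the gap between 203.5 and 204.0 CPM was small. Its edgeR p was 0.0094 and 0.0030, and 1.0 and 0.21 after adjustment. In naive mice KO lay above WT, also without overlap, by 0.12 ± 0.08 (edgeR adjusted p = 0.85), which enters the response differences. At day 21 the adjusted p was 0.022 without KO day 21 mouse 3. The difference between the KO and WT responses was -0.34 ± 0.11 at day 7 and -0.38 ± 0.11 at day 21 (edgeR adjusted p = 0.48 and 0.14). Over all members 0 response differences were called at day 7, 14 or 21 by edgeR, beside 0.00792%, 0.214% and 0.222% of all genes with a positive and 0%, 0.119% and 0.111% with a negative difference (0.00792%, 0.332% and 0.332% in all). At an unadjusted p under 0.05 there were 1, 3 and 4 (4.35%, 13% and 17.4%), beside 6.14%, 10.3% and 10.8% of all genes. DESeq2 called Neu1 at day 21, and edgeR did so without KO day 21 mouse 3 (adjusted p = 0.028).

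Cmas was higher in KO than in WT naive mice by 0.27 ± 0.11, without overlap, which did not pass (edgeR adjusted p = 0.47). Such separation was not particular to Neu1 and Cmas. KO lay above WT mice without overlap for St3gal4 when naive, for Siae and St6gal1 at day 7 and for St3gal1 at day 14. KO lay below WT mice for St3gal5 and St6galnac4 at day 14, and none of these was called. At day 14 St3gal5 was lower in KO mice by -2.07 ± 0.74 and St3gal4 higher by 0.38 ± 0.16, and neither passed (edgeR adjusted p = 0.31 and 0.41). St3gal2 and St6galnac4 were lower in KO mice of day 14 by -0.53 and -0.46 and did not pass (edgeR adjusted p = 0.43 and 0.49). St3gal5 was called without KO day 14 mouse 1, which left the 2 mice nearer the naive state (adjusted p = 0.035). St3gal4 turned to -0.04 when the 3 KO mice nearer the naive mice were left out, which sets 1 KO mouse against 3 WT mice. A difference called in 1 genotype and not in the other, as for Cmas, is therefore not shown to differ between them.

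**Figure D5:**
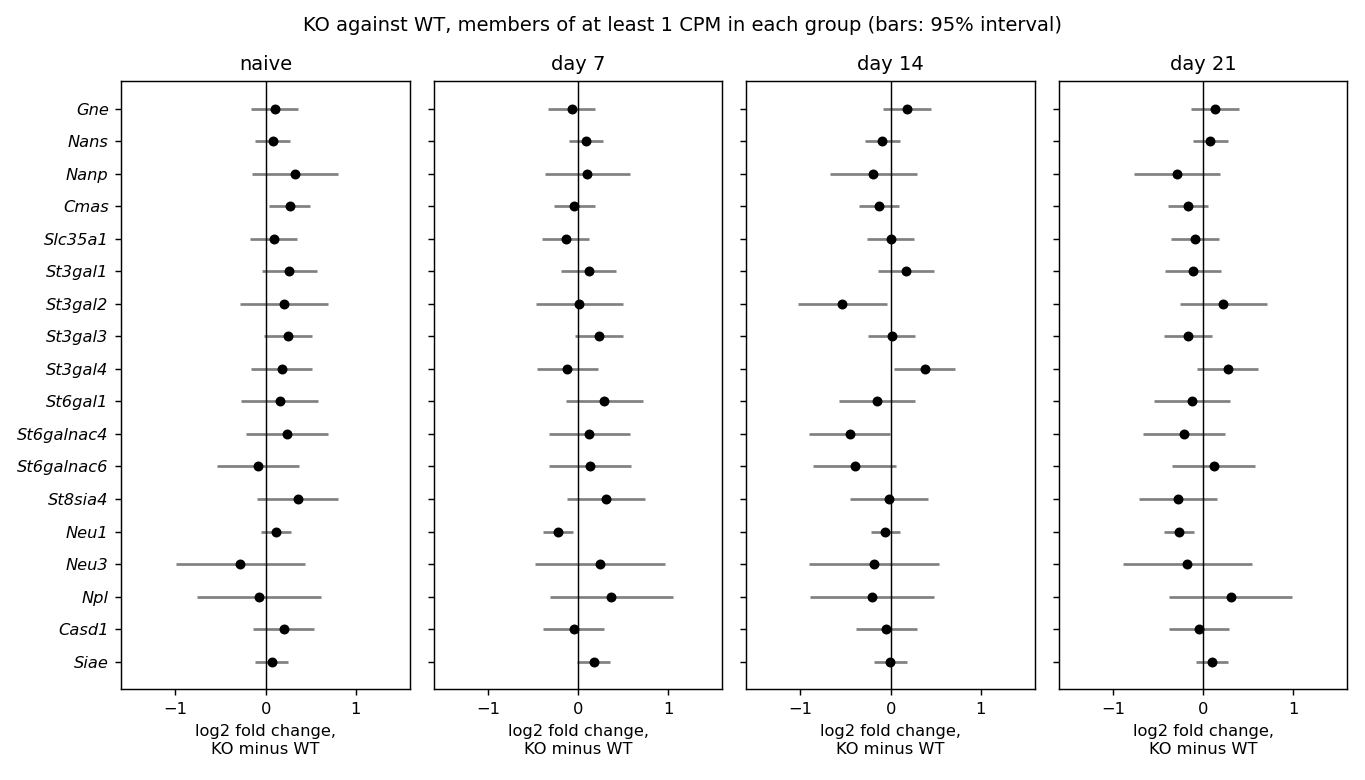
Log2 fold change of KO against WT mice (3 against 3) at each of the 4 times for the 18 members with a mean of at least 1 CPM in each group, with bars for the 95% interval. Intervals at day 7 and day 21 lie below 0 for Neu1, and that of naive mice lies above 0 for Cmas. At day 14 the intervals of St3gal2 and St6galnac4 lie below 0 and that of St3gal4 above it. None of these passed after adjustment.

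Genes that supply or share these reactions were read from lists, each beside the shares of all genes given above: 20.2%, 18.7% and 18.8% higher and 15.3%, 13.4% and 13.7% lower in WT mice at day 7, 14 and 21. In KO mice these shares were 19.7%, 12% and 15% higher and 14.4%, 4.84% and 6.89% lower. Of 6 tested lysosomal partners and exporters of sialic acid, 2, 5 and 5 were higher and 0 lower in WT mice, and 3, 3 and 4 were higher in KO mice. They include Ctsa, the protective protein that holds Neu1 in an active complex, with WT changes of 0.17 (not called), 0.53 and 0.48. Of 12 genes of hexosamine and UDP-GlcNAc supply, 4, 1 and 1 were higher and 4, 2 and 3 lower in WT mice. Gfpt1, the first enzyme of that route, fell by 0.45, 0.55 and 0.58, and Uap1, which makes UDP-GlcNAc, fell by 0.38, 0.29 and 0.32 in WT mice.

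Of 22 tested enzymes that build the acceptor glycans, 10, 11 and 11 were higher and 5, 2 and 1 lower in WT mice, and 9, 10 and 10 were higher without B3gnt5, which lay below the filter level in every naive mouse. B4galt1, which adds the galactose that receives sialic acid, rose by 1.07, 1.10 and 1.15 in WT mice and by 0.96, 0.98 and 0.95 in KO mice. B4galt6, a lactosylceramide synthase that makes the substrate of St3gal5, went from 0.143 ± 0.214 CPM in WT naive mice to 30.0 ± 5.42 CPM at day 14 (SD, n = 3). In naive mice it reached at most 0.388 CPM in WT and 0.0966 CPM in KO, so it was tested because of bleomycin mice. It is still among the 21 genes counted without B3gnt5, so those counts are not free of this effect. Of 15 tested genes of fucosylation and sulfation, 7 were higher on each day and 1, 2 and 2 lower in WT mice. Chst11 and 4 others of these lay below the filter level in every naive mouse and so were tested because of bleomycin mice, and over the other 10 genes 4 were higher on each day. Papss2, which makes the sulfate donor, is among these 10 genes. It went from 0.208 ± 0.167 CPM in WT naive mice to 20.8 ± 6.53 CPM at WT day 14. In naive mice it reached at most 0.388 CPM in WT and 0.276 CPM in KO, so it too was tested because of bleomycin mice. The chondroitin sulfotransferase Chst11, not among the 10, went from 0.0486 ± 0.0606 to 12.4 ± 4.83 CPM between these WT groups.

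Of 4 tested carriers of polysialic acid, 3 were higher on each day in WT mice and 4 in KO mice. The shares of all genes higher in KO mice were 19.7%, 12% and 15%. Nrp2, a neuropilin that carries polysialic acid on macrophages and dendritic cells, rose by 1.01, 1.67 and 1.82 in WT mice and by 1.01 at day 7 and 1.41 at day 21 in KO mice. At day 14 Nrp2 was called higher in KO mice as well. Ccr7, the other well-known immune carrier, is also a dendritic cell marker and went from 0.079 ± 0.0908 CPM in WT naive mice to 8.10 ± 2.21 CPM at day 21. It reached at most 0.459 CPM in naive mice of either genotype, so this carrier was tested because of bleomycin mice. Of 11 tested sialic acid-binding receptors, 1, 2 and 1 were higher and 5, 3 and 1 lower in WT mice, and over the 9 that reached the filter level in naive mice 0, 1 and 0 were higher, with Siglecf lower by -2.28, -2.04 and -2.09.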

How the data were processed

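The authors deposited 1 table of expected counts, estimated read counts per gene with fractions, 1 column for each of the 24 mice. The labels give 2 sequencing runs a mouse, and the sources used here leave unstated if both runs were added into 1 column, which aligner and counter were used and whether strand was. The submitters' processing notes name mm10, bcl2fastq, DESeq2 1.42.0 and limma 3.58.1. Another 24 columns were not used. RNA libraries were made from total RNA with a Universal Plus mRNA-Seq kit, per the labels' protocols.

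Counts were rounded. Genes were kept with filterByExpr (minimum count 10, minimum total 15), scaled by TMM and fitted with edgeR 4.0.16 in R 4.3.3 as 8 group means with 16 residual degrees of freedom, and p-values were adjusted by Benjamini-Hochberg over all 12634 genes in each comparison. CPM are counts per 1000000 TMM-scaled counts. Nothing in the labels says more of the mice than their numbers, so p-values measure the spread between these samples. The members, the lists and the tests were chosen with earlier results of these data known. Values of every mouse are given for the 5 highest and 5 lowest mean responses among members called in WT mice and for a panel of 10 members, and up to 4 genes of a list by smallest mean p. The pipeline was tested on simulated data with 200 genes of sufficient counts changed between WT naive mice and WT day 14. It called 35.8% of the 1.5-fold, 74.6% of the 2-fold and 93.9% of the 4-fold changes in the right direction. Of 146 calls, 10 were false. Changes of each of these sizes can therefore be missed with 3 mice per group, the 1.5-fold changes most often. Genes with few counts were not changed in the simulation, so it does not cover members such as Cmah and St8sia1. Alternatives were DESeq2 1.42.0, median-ratio (RLE) scaling, no filter, the mouse number as a block, the omission of each mouse and, added after seeing the data, of 3 KO mice together.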

Additional observations from a re-analysis of the deposited data

Results flagged for a closer look

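One gene of the surrounding pathway, chosen after its values were seen, differed between the genotypes in its response to bleomycin by the test of that difference. Ugcg, which makes the glucosylceramide that B4galt6 and St3gal5 build on, stood at 91.0 ± 6.70 CPM in WT naive mice and 61.1 ± 5.24 CPM at WT day 14, and at 55.8 ± 4.71 CPM in KO naive mice and 87.9 ± 24.7 CPM at KO day 14 (SD, n = 3). The KO response minus the WT response at day 14 was 1.23 on the log2 scale (edgeR adjusted p = 0.025). KO naive mice, at 50.4 to 59.1 CPM, lay below WT naive mice, at 84 to 97.4 CPM, which enters this difference. At day 14 the genotypes overlapped, with 57 to 67 CPM in WT and 59.9 to 107 CPM in KO mice. Means at day 7 and day 21 were 56.7 and 63.4 CPM in WT and 59.2 and 66.3 CPM in KO mice. The call was lost without WT naive mouse 3, WT day 14 mouse 1 or 2, KO naive mouse 1 or 2, or KO day 14 mouse 2 or 3, and the value was 0.69 (edgeR adjusted p = 0.59) without the 3 KO mice nearer the naive mice, a fit with 1 KO mouse at day 14 that is assumed to vary like the other groups. Over 17 alternatives the adjusted p ran from 0.00019, under DESeq2, to 0.59.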

How the results depend on the processing

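Of 63 called member comparisons, 43 stayed called in every alternative run on them and 59 in the 4 alternatives with all mice. With each mouse left out in turn, the number of members called ran from 3 to 8 at KO day 14 against naive, 5 to 10 at KO day 21 against naive, 1 to 3 for WT and 0 to 5 for KO day 21 against day 7, and 0 to 1 for KO against WT at day 14, for KO against WT at day 21 and for the response difference at day 21. DESeq2 called 1 response difference at day 21, Neu1. St3gal4, KO against WT at day 14, was -0.0381 without the 3 KO mice nearer the naive mice, which leaves 1 KO mouse against 3, against 0.378. The cause was not tested. With the mouse number as a replicate block, 9, 12 and 11 members were called in WT and 9, 7 and 8 in KO mice at day 7, 14 and 21, and 0 between genotypes. Deviations of mice with the same number correlated at -0.49 to 0.31 (median 0.003), beside -0.28 to 0.41 (median -0.00014) for mice with different numbers. These ranges show no sign of pairing by number but cannot exclude it. Over all genes DESeq2 called more than edgeR for KO against WT: 164 against 69 in naive mice, 13 against 1 at day 7, 141 against 17 at day 14, 132 against 12 at day 21 and 145 against 41 for the mean. For response differences it called 40, 209 and 259 against 1, 42 and 42. Members with under 1 CPM rest on few reads, and 3 mice per group limit every comparison.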
